A study of Mus musculus with 19 samples.

Results

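Red blood cells leave their messenger RNAs in any tissue that still holds blood, and the striatum of each of 19 mice gave counts for the genes of hemoglobin and of heme synthesis. The 8 genes described here were given by name. They are the adult globin genes Hba-a1, Hba-a2, Hbb-bs and Hbb-bt, the erythroid ALA synthase gene Alas2, and Alas1, Alad and Fech, which act in the synthesis of heme in all cells. They are 8 of the 54232 genes in the count table, and all 8 were among the 18521 genes that passed the filter on low counts. The list was drawn up after Alas2 and Hbb-bt had stood out between KI-571 and WT mice, so the values of that comparison are a description and no test is drawn from it.

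The mice were 6 months of age on a C57/BL/6 background. WT mice (n = 7) were wild type. KI-FL mice (n = 4) were HD140Q knock-in mice, with an expanded CAG repeat in the mouse Htt gene and full-length mutant huntingtin (HTT), the protein of Huntington's disease. In KI-96 (n = 4) and KI-571 (n = 4) mice the same knock-in allele had been truncated with CRISPR/Cas9, so that it encoded a short N-terminal fragment (KI-96) or a longer fragment (KI-571). On the study's western blots, the fragment seen in the brain of both truncated lines had the size of the smallest in KI-FL brain. According to the study's methods the truncated lines were used as heterozygotes, so a normal Htt allele was present in them as well. The mice were decapitated and the striatum was dissected, and perfusion is described only for tissue that was stained. Sex and the day of sacrifice are not in the labels. The study modelled a sacrifice batch, which could not be fitted here without its labels. Its part in the differences between genotypes was not tested. The level of Xist, an RNA of female cells, was used as a covariate in an alternative model. In that model the 4 genes called between KI-571 and KI-FL mice still passed at log2 fold changes of 1.80 to 2.04. The log2 fold changes of Hba-a1, Hba-a2 and Hbb-bs between KI-96 and WT mice changed sign in it, to 0.45, 0.64 and 0.066.

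Heme is built in a chain that starts and ends in mitochondria. ALA synthase joins glycine and succinyl-CoA in the rate-limiting step, ALA dehydratase (Alad) joins ALA molecules into the first pyrrole, and ferrochelatase (Fech) inserts iron into protoporphyrin. The first step has a housekeeping enzyme, Alas1, which heme itself represses, and an erythroid enzyme, Alas2, which red cell precursors use and whose translation depends on iron. Hemoglobin is a tetramer of alpha and beta globin chains, each with a heme. Reticulocytes, the youngest red cells of the blood, have lost the nucleus but still carry globin and Alas2 transcripts. Neurons have also been described to make some alpha and beta globin.

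The promoters of the 4 globin genes and Alas2 are shown because these 5 are the erythroid members. The stretches are the 120 bases before the RefSeq start (GRCm38.p6), written in the direction of transcription, and some GENCODE models of the same genes begin farther upstream. Capitals mark, on either strand, the letters CACCC (the box that the erythroid factor Klf1 reads), the box with the letters CCAAT, the start of a TATA box (the letters TATAA), and AGATAA, a form of the site that Gata1 reads.
Hba-a1 (chr11:32283552-32283671, plus strand): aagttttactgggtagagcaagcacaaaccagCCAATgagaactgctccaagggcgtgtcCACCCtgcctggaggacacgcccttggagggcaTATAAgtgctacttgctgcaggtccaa
Hba-a2 (chr11:32296372-32296491, plus strand): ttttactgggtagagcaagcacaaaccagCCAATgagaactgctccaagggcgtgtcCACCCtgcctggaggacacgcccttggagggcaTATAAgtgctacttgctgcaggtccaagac
Hbb-bs (chr7:103827929-103828048, minus strand): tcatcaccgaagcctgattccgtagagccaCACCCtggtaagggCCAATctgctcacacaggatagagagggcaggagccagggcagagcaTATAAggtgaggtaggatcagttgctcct
Hbb-bt (chr7:103813924-103814043, minus strand): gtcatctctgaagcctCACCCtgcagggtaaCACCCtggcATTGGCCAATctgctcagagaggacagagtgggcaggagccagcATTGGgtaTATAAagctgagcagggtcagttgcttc
Alas2 (chrX:150547297-150547416, plus strand): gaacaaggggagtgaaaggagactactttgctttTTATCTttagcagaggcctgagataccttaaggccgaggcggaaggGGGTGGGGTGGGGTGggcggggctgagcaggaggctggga
All 4 globin stretches held the first 3 of these together, which 0.688% of 32851 promoters of the same length did. Alas2 held CACCC 3 times and AGATAA once. Of all these promoters 31.7% held CACCC and a share of 21.3% held CCAAT, while for TATAA the share was 11.8% and for AGATAA it was 4.36%.

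The pairs of globin genes are near-identical copies, which limits how their counts can be read. In windows of 100 bases, 63.3% of the Hba-a1 transcript also occurred in Hba-a2, and 79.5% of the Hba-a2 transcript occurred in Hba-a1. Of the windows of Hbb-bs 49.7% were shared with Hbb-bt, and of those of Hbb-bt 54.8% were shared with Hbb-bs. Reads that mapped to several places did not count toward a gene, so the levels of the 4 globins are too low and the division within a pair is uncertain. The transcripts of Alas2, Alas1 and Alad shared no window with another gene and that of Fech shared 0.256%. Exons of Alas2 (chromosome X, 150547375 to 150570638) overlap Apex2 on the other strand. Exons of Alas1 (chromosome 9, 106233455 to 106248654) overlap an antisense gene, 4930500F10Rik. Hba-a1 and Hba-a2 lie on chromosome 11 (32283511 to 32284465 and 32296489 to 32297298) and Hbb-bs and Hbb-bt on chromosome 7 (103826534 to 103828096 and 103812524 to 103813996). Alad lies on chromosome 4 (62509169 to 62519918) and Fech on chromosome 18 (64452914 to 64490251).

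The total count per mouse ran from 12669809 to 26388542, with the deepest libraries among WT replicates 5 to 7. KI-FL replicate 4 stood apart, with 16384 genes detected and 3186 of the tested genes at 0, and in KI-96 replicate 3 a share of 24.2% of the reads fell on no annotated feature. Markers of the choroid plexus, the epithelium that makes cerebrospinal fluid, summed to 5128 CPM in KI-571 replicate 2, 5381 CPM in KI-571 replicate 4 and 3051 CPM in KI-FL replicate 1, against 36.6 to 411 CPM in the other 16 mice. The striatal projection neuron markers, which check the tissue, summed to 4944 to 8728 CPM in all mice.

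The abundance of the members differed widely in WT striatum. Levels are given as CPM, counts scaled to library size with TMM factors, and, to compare genes, as CPM per kilobase of exon. Hbb-bs was first with 100.2 ± 40.5 CPM per kilobase (SD, n = 7) and Hba-a1 followed with 64.8 ± 22.2. The ranges of these genes overlapped between mice. Alad (12.1 ± 2.3), Hbb-bt (11.4 ± 2.8) and Hba-a2 (8.44 ± 3.51) came next and lay within one another's spread. Alas1 had 6.65 ± 0.51 CPM per kilobase, Fech 3.89 ± 0.29 and Alas2 1.32 ± 0.28. The housekeeping synthase was more abundant than the erythroid synthase in WT mice, and the 3 ubiquitous genes varied less between WT mice than the globins. The 4 globins together took 0.00759% to 0.0226% of the counts in WT mice.

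The alpha globin genes were highest in KI-571 mice and, for Hba-a1, lowest in KI-FL mice. Hba-a1 ranged from 28.3 to 77.6 CPM in WT mice, with a median of 54.1. It was at 36.6, 31.0, 34.7 and 53.7 CPM in KI-96 replicates 1 to 4, at 60.4, 148.1, 79.7 and 69.3 CPM in KI-571 replicates 1 to 4, and at 19.9, 11.5, 26.7 and 31.3 CPM in KI-FL replicates 1 to 4. Every KI-571 mouse was above every KI-96 and KI-FL mouse, and the KI-571 and WT ranges overlapped. Hba-a2, the rarer copy, ranged from 1.87 to 7.90 CPM in WT mice with a median of 6.55. It was at 3.25, 5.04, 4.39 and 6.83 CPM in KI-96 mice, at 7.01, 22.9, 13.3 and 6.44 CPM in KI-571 mice and at 1.86, 2.14, 10.7 and 4.76 CPM in KI-FL mice, so that all genotypes overlapped.

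Hbb-bs, the more abundant beta globin gene, behaved like Hba-a1. Its lowest, median and highest values in WT mice were 40.7, 78.2 and 118 CPM. In KI-96 mice it was at 46.1, 42.8, 29.7 and 66.4 CPM, in KI-571 mice at 74.2, 241, 106 and 132 CPM, and in KI-FL mice at 28.1, 23.4, 53.1 and 37.9 CPM. The lowest KI-571 mouse was above the highest KI-96 and the highest KI-FL mouse. Hbb-bt, the other adult beta gene, had 4.60, 7.91 and 10.4 CPM as its lowest, median and highest WT values. It was at 8.08, 8.76, 9.98 and 10.5 CPM in KI-96 mice, at 12.7, 50.6, 22.5 and 17.2 CPM in KI-571 mice and at 3.52, 3.48, 8.95 and 8.81 CPM in KI-FL mice. All 4 KI-571 mice lay above every mouse of the other 3 genotypes for Hbb-bt.

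Alas2, the erythroid enzyme, was low in WT mice, at 2.12, 3.29 and 3.93 CPM for the lowest, median and highest mouse. It was at 4.69, 4.32, 7.92 and 3.68 CPM in KI-96 mice, at 8.69, 20.4, 8.05 and 6.23 CPM in KI-571 mice and at 1.66, 3.09, 3.79 and 1.76 CPM in KI-FL mice. The KI-571 mice did not overlap with WT or KI-FL mice, and 3 of 4 lay above every KI-96 mouse. These levels rest on 25 to 343 counts per mouse. The same mouse, KI-571 replicate 2, had the highest value of all 19 for each globin and for Alas2.

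The ubiquitous genes overlapped between WT and every KI line. Alas1 ranged from 37.8 to 45.5 CPM in WT mice (median 39.3), from 25.3 to 40.2 CPM in KI-96 mice, from 35.0 to 49.1 CPM in KI-571 mice and from 30.6 to 46.4 CPM in KI-FL mice. Fech ranged from 47.1 to 59.3 CPM in WT mice (median 54.4) and from 42.1 to 61.3 CPM over the KI mice. Alad ranged from 17.6 to 28.9 CPM in WT mice (median 23.1). It was at 21.2, 19.8, 10.8 and 19.6 CPM in KI-96 mice, at 20.9, 21.3, 18.8 and 16.5 CPM in KI-571 mice and at 20.2, 29.0, 38.6 and 31.5 CPM in KI-FL mice. The value of 10.8 CPM belongs to KI-96 replicate 3, the mouse with many reads outside annotated features, which also had the lowest Alas1 and Hbb-bs and the highest Alas2 of its genotype.

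**Figure D1:**
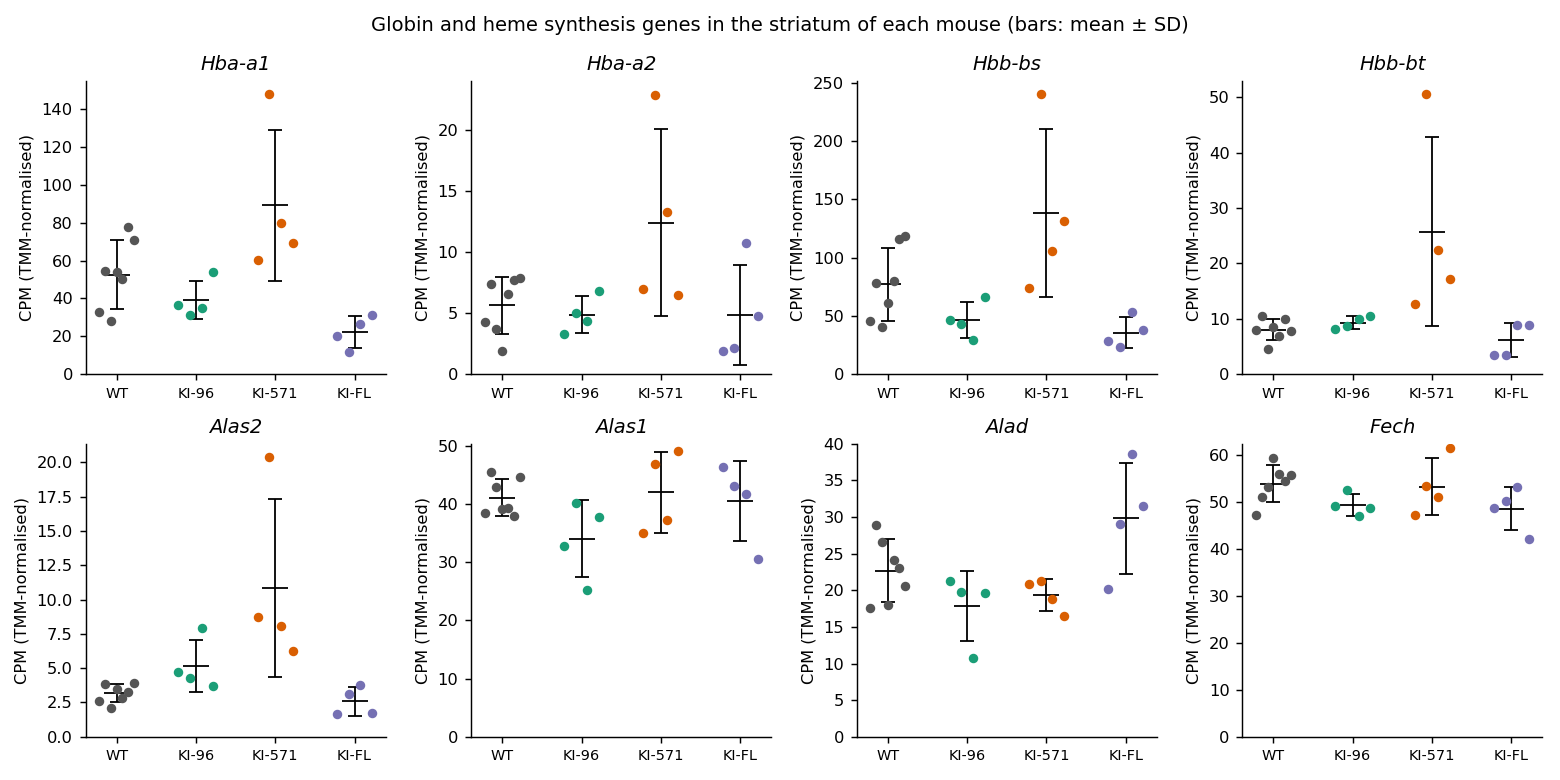
Level of each of the 8 genes in each mouse, as TMM-normalised CPM on linear axes that start at 0, by genotype (WT n = 7, the others n = 4). Points are mice and bars give the mean ± SD. The KI-571 mice sit above the KI-FL mice for Hba-a1, Hbb-bs, Hbb-bt and Alas2, while Alas1 and Fech overlap in all genotypes.

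The comparison of KI-571 with WT, which brought the list together, is given first and without a test. Hbb-bt was 3.20-fold and Alas2 3.41-fold higher in KI-571 mice (log2 fold change 1.68 ± 0.30 and 1.77 ± 0.30, SE). Hba-a2 differed by 1.13 ± 0.42, Hbb-bs by 0.84 ± 0.30 and Hba-a1 by 0.76 ± 0.27 on the log2 scale, while Alas1 (0.03 ± 0.13), Fech (-0.02 ± 0.09) and Alad (-0.23 ± 0.18) did not stand out from their errors. Over all genes 0.0324% passed an adjusted p of 0.05, Alas2 and Hbb-bt among them, and in 1.55% the mice of both genotypes did not overlap. Nothing is read from these counts, because the list was chosen on them.

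Whether the form of mutant HTT went with the level of these genes was asked by comparing the KI lines directly. In 4 of the 8 members KI-571 mice were higher than KI-FL mice. Hba-a1 was 3.98-fold higher in KI-571 mice (log2 fold change 1.99 ± 0.33, edgeR adjusted p = 0.0165), Hbb-bs 3.86-fold (1.95 ± 0.37, adjusted p = 0.0314), Hbb-bt 4.11-fold (2.04 ± 0.37, adjusted p = 0.0258) and Alas2 4.18-fold (2.06 ± 0.36, adjusted p = 0.0258). These 4 calls stood against 0.0864% of all tested genes, which is 16 genes. In the same 4 members the mice of the genotypes did not overlap, which was so in 4.32% of all tested genes. Hba-a2 differed by 1.33 ± 0.50 (adjusted p = 0.455) and Alad by -0.62 ± 0.21 (adjusted p = 0.385), and Alas1 (0.06 ± 0.15) and Fech (0.13 ± 0.10) were close to 0. The erythroid synthase and 3 of the 4 globins were thus 3.86- to 4.18-fold higher, Hba-a2 was at 2.51-fold and the housekeeping synthase at 1.04-fold.

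The KI-571 mice of this comparison are those on which the list was chosen, so it is not independent of the choice. Leaving out KI-571 replicate 2 left 0 of 8 members past the threshold, with log2 fold changes of 1.48 to 1.64 for the 4 genes. Leaving out KI-FL replicate 1, 2 or 4 also left 0, with log2 fold changes of 1.78 to 2.25. Leaving out KI-571 replicate 4 left 3, with Hbb-bs short of the threshold (adjusted p = 0.0883, edgeR). With only these 8 mice in the model 0 members passed (1.95 to 2.07), and DESeq2 over all mice called the same 4 and 0.475% of all tested genes. The 3 mice with high choroid plexus markers were also left out together, an alternative chosen after the data had been seen. The log2 fold changes were then 1.24 to 1.60 and no gene of the table passed, with 2 KI-571 mice left. The globin sums of these 3 mice were 462.2 CPM in KI-571 replicate 2, 224.7 CPM in KI-571 replicate 4 and 53.4 CPM in KI-FL replicate 1. Those of the KI-571 replicates 2 and 4 were the highest and second highest of all mice. The part of the choroid plexus in the result was not tested.

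KI-571 against KI-96 compared the truncated forms and shares the KI-571 mice with the choice of the list. No member passed the edgeR test, where 0.0054% of all tested genes did. All 8 had a positive log2 fold change, as did 9406 of the 18521 tested genes. Alad (0.12 ± 0.21) and Fech (0.11 ± 0.10) differed by less than their errors or little more, and Alas1 was at 0.31 ± 0.15. Unadjusted p was under 0.05 for 5 members and for 5.51% of all tested genes. DESeq2 called 1 member, Hbb-bt, and 0.189% of all tested genes. Hbb-bs was 2.98-fold higher (1.57 ± 0.36, adjusted p = 0.313), Hbb-bt 2.75-fold (1.46 ± 0.36, adjusted p = 0.34) and Hba-a1 2.28-fold (1.19 ± 0.32, adjusted p = 0.38). For these 3 genes the genotypes did not overlap, against 2.85% of all tested genes. Alas2 was 2.10-fold higher (1.07 ± 0.35, adjusted p = 0.564) with overlapping mice.

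KI-FL mice were compared with WT mice, and no member passed, against 0.194% of all tested genes in edgeR. The WT mice are among those on which the list was chosen, so the comparison is not independent of the choice. Unadjusted p was under 0.05 for 3 members and for 16.7% of all tested genes. DESeq2 called 1 member, Hba-a1, and 2.75% of all tested genes. Hba-a1 was 2.35-fold lower in KI-FL mice (-1.23 ± 0.30, adjusted p = 0.0736) and Hbb-bs 2.16-fold lower (-1.11 ± 0.33, adjusted p = 0.119). Hbb-bt (-0.36 ± 0.33), Alas2 (-0.30 ± 0.32) and Hba-a2 (-0.20 ± 0.45) differed by less than their errors or little more. The log2 fold change of Alas2 was within its error, while those of both lower globins were not. Alad was at 0.40 ± 0.18 (adjusted p = 0.269), with 3 of 4 KI-FL mice above every WT mouse. None of the 8 was without overlap, where 5.29% of all tested genes were. Hbb-bs was at 40.7 to 78.2 CPM in WT replicates 1 to 4 and at 79.6 to 118 CPM in the deeper replicates 5 to 7. Against WT replicates 1 to 4 alone the log2 fold change was -0.93 for Hba-a1 (adjusted p = 0.473, edgeR) and -0.66 for Hbb-bs (adjusted p = 0.598, edgeR).

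KI-96 against WT gave no call among the members, where 0.027% of all tested genes passed. It shares the WT mice with the choice of the list. Higher values of Alas2 and Hbb-bt than in WT mice were thus favoured beforehand. DESeq2 called 0 members and 0.151% of all tested genes. Unadjusted p was under 0.05 for 2 members and for 7.45% of all tested genes. Those members were Hbb-bs, 1.66-fold lower in KI-96 mice (-0.73 ± 0.32, adjusted p = 0.653), and Alas2, 1.62-fold higher (0.70 ± 0.31, adjusted p = 0.653). Against WT replicates 1 to 4 alone they were -0.28 and 0.77. With Xist as a covariate the log2 fold change of Hbb-bs changed sign, to 0.066. For no member did the mice of these genotypes stay apart, against 1.24% of all tested genes. KI-96 against KI-FL, the comparison that uses none of the mice on which the list was chosen, gave no call either, and 0% of all tested genes passed in edgeR. Unadjusted p was under 0.05 for 3 members and for 8.9% of all tested genes, and DESeq2 called 0 members and 0.205% of all tested genes. Alad was 1.67-fold lower in KI-96 mice (-0.74 ± 0.21, adjusted p = 0.367), Alas2 was 1.99-fold higher (0.99 ± 0.36, adjusted p = 0.449) and Hba-a1 1.74-fold higher (0.80 ± 0.32, adjusted p = 0.499). No member was without overlap, against 3.16% of all tested genes.

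**Figure D2:**
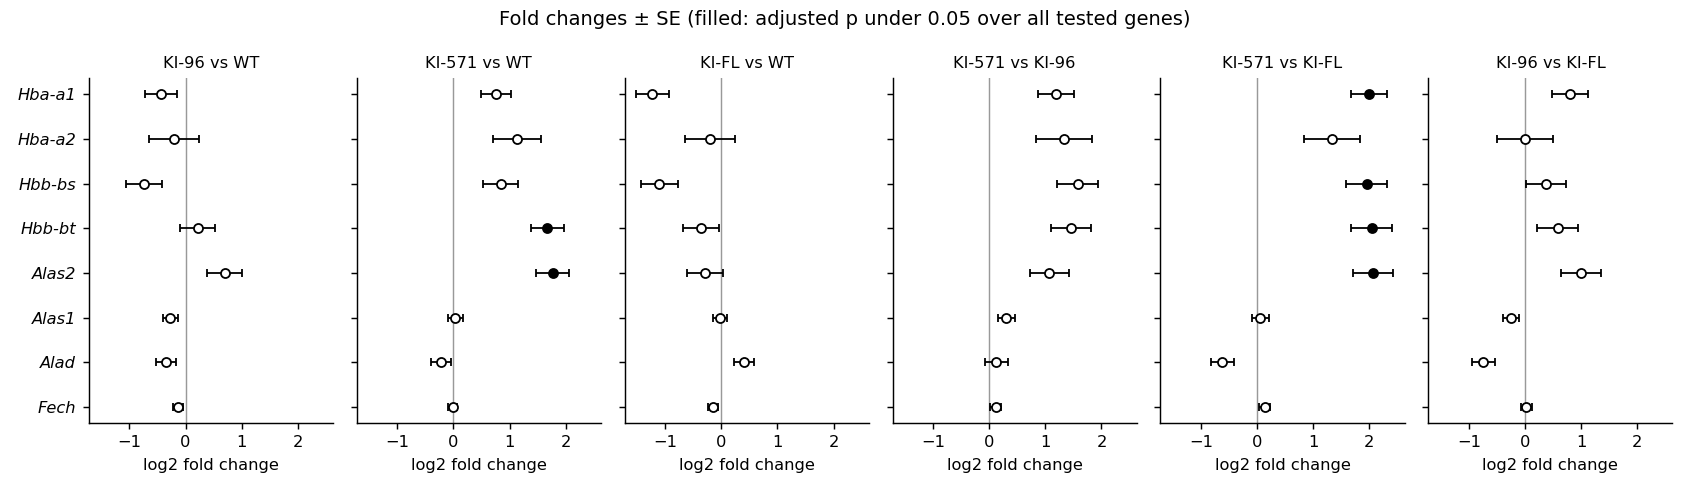
Log2 fold change ± SE of each gene in the 6 comparisons, from 1 edgeR model over 19 mice. Filled points passed an adjusted p of 0.05 over 18521 genes. In KI-571 against KI-FL mice 4 erythroid genes lie near 2 while Alas1 and Fech lie near 0, and the filled points of KI-571 against WT are those on which the list was chosen.

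In bulk tissue fewer or more red cells and less or more RNA per red cell cannot be told apart, so ratios of counts within a library were compared as well. The count of Hbb-bt per Hbb-bs count was 0.0655 to 0.174 in WT mice (median 0.113), at 0.175, 0.205, 0.336 and 0.158 in KI-96 mice, at 0.172, 0.210, 0.212 and 0.131 in KI-571 mice and at 0.125, 0.149, 0.169 and 0.232 in KI-FL mice. Alas2 counts per 100 globin counts were 1.56 to 2.91 in WT mice (median 2.56), at 4.99, 4.92, 10.1 and 2.68 in KI-96 mice, at 5.63, 4.42, 3.64 and 2.77 in KI-571 mice and at 3.11, 7.63, 3.81 and 2.13 in KI-FL mice. All KI lines had mice above the WT range in both ratios.

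The log2 ratio of Hbb-bt to Hbb-bs was 0.94 higher in KI-96 than in WT mice, higher in 3 of 4 KI-96 mice than in any WT mouse (exact permutation test, two-sided, p = 0.0121, adjusted over 4 tests 0.0242), and that of Alas2 to the globins was 1.14 higher, also with 3 of 4 KI-96 mice above any WT mouse (exact p = 0.0121, adjusted 0.0242). Between KI-FL and WT mice the differences were 0.59 (exact p = 0.0758, adjusted 0.0758) and 0.70 (exact p = 0.0455, adjusted 0.0607). Hbb-bt and Alas2, the numerators of these ratios, are the genes that stood out against these same WT mice when the list was chosen. A ratio above that of WT mice was thus favoured beforehand, and no conclusion is drawn from these p-values. WT mice themselves fell apart in both ratios: Alas2 counts per 100 globin counts were 2.56 to 2.91 in replicates 1 to 4 and below 2.01 in replicates 5 to 7, and Hbb-bt per Hbb-bs was 0.113 to 0.174 and 0.0655 to 0.0874. Against WT replicates 1 to 4 alone the KI-96 differences were 0.59 and 0.89 and no longer passed (adjusted p = 0.229 for both, exact permutation test). They also missed the threshold without KI-96 replicate 1, 2 or 3 (adjusted p = 0.0606 for each, exact permutation test). The reason for the split of the WT mice was not tested.

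**Figure D3:**
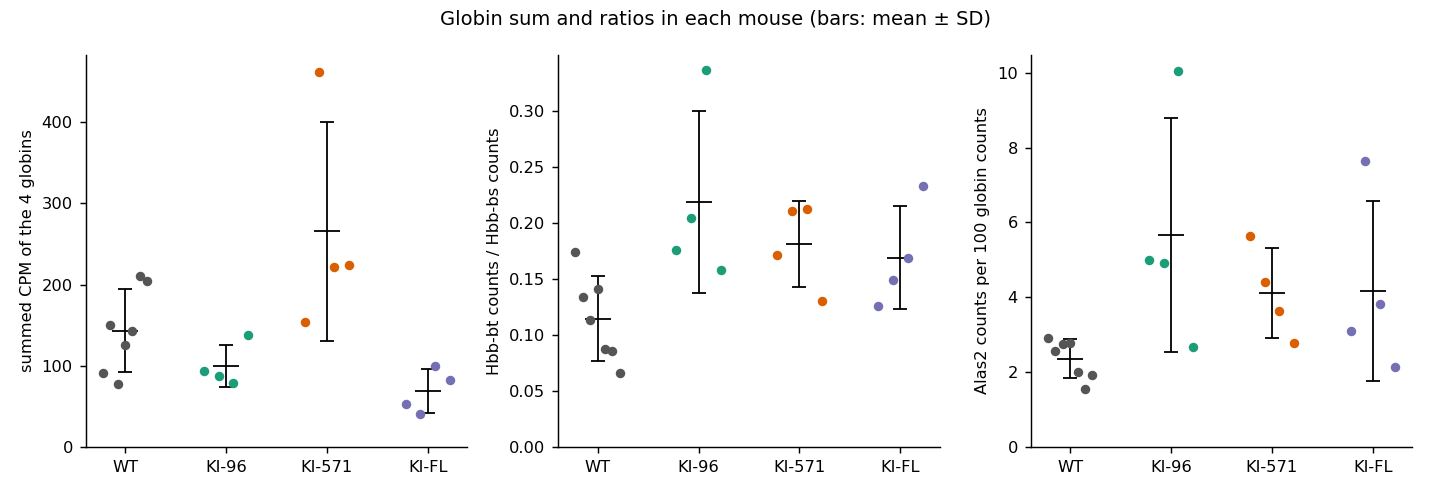
Summed CPM of the 4 globins, Hbb-bt counts per Hbb-bs count and Alas2 counts per 100 globin counts in each mouse, on linear axes from 0 and with the mean ± SD. The median globin sum is lowest in KI-FL mice (68.1 CPM, range 40.5 to 99.5) and highest in KI-571 mice (223 CPM, range 154 to 462). Both ranges overlap that of WT mice (77.4 to 211 CPM). In both ratios the lowest mice are WT.

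Whether globins, Alas2 and the ubiquitous heme genes followed one another was asked over the mice apart from genotype, with log2 CPM centred on the mean of each genotype. The 4 globins varied together. Over 19 mice their 6 pairs had a Pearson r of 0.644 to 0.885, with Hba-a1 and Hbb-bs, which lie on different chromosomes, the closest pair at 0.885. The points share library and depth, and the near-identical pairs share unassigned reads. Alas2 followed the globins less closely, with r of 0.362 to 0.571 and Hbb-bt the closest. The 12 pairs of a globin with Alas1, Alad or Fech had r of -0.09 to 0.507 with a median of 0.125, and Alas2 with these genes had -0.05 to 0.125. Alas1 and Fech, the first and the last enzyme of the housekeeping chain, had r of 0.605 with each other. Within the 7 WT mice alone this r was -0.06. KI-FL replicate 4 and KI-96 replicate 3 were the lowest of their genotypes for both genes. These values are a description of the 28 pairs.

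For a tested relation the mean of the 4 globins and Hbb-bs, the most abundant globin, were each set against the 4 other genes. For Hbb-bs r was 0.374 with Alas2 (Spearman rho 0.326), 0.327 with Alas1 (rho 0.26), 0.375 with Alad (rho 0.316) and 0.344 with Fech (rho 0.316). None passed a permutation test within genotypes (two-sided, 100000 permutations, p = 0.176, 0.201, 0.118 and 0.215, each 0.215 after adjustment over the 4). For rho the permutation p was 0.215, 0.31, 0.196 and 0.24, each 0.31 after adjustment. Without WT replicate 3 and KI-571 replicate 2, the mice farthest from the median of Hbb-bs, r was -0.06 with Alas2, 0.325 with Alas1, 0.517 with Alad and 0.398 with Fech. The mean of the 4 globins had r of 0.493 with Alas2, 0.383 with Alad, 0.07 with Alas1 and 0.07 with Fech. None of these passed the same permutation test (p = 0.0882, 0.108, 0.79 and 0.808, adjusted 0.217, 0.217, 0.808 and 0.808). Without KI-571 replicate 2 and KI-FL replicate 3 the r of the globin mean with Alas2 was 0.02. Over the 19 mice the centred relation of the globins with Alas2 did not hold without them. Within the 7 WT mice alone r with Alas2 was 0.763 for the mean of the globins and 0.765 for Hbb-bs (rho 0.714). The exact permutation p was 0.0504 for the mean of the globins and 0.0478 for Hbb-bs (0.202 and 0.191 after adjustment over the 4 genes). These 7 mice leave too few to drop the farthest. Without centring, r of Hbb-bs with Alas2 over the 19 mice was 0.606, a value that holds the KI-571 difference which chose the list.

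**Figure D4:**
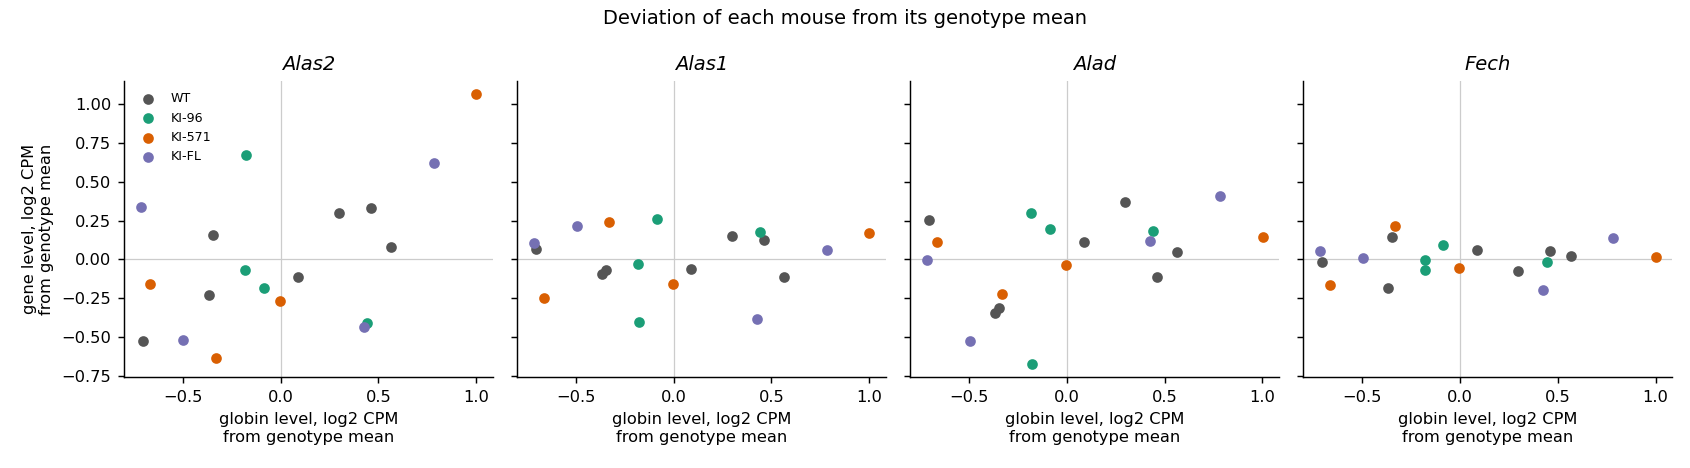
Deviation of each mouse from its genotype mean in log2 CPM, for the mean of the 4 globins (x) and Alas2, Alas1, Alad or Fech (y), 19 points per panel coloured by genotype. In the Alas2 panel KI-571 replicate 2 and KI-FL replicate 3 lie at the upper right, apart from the other mice, and the Fech points lie along a flat band.

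**Figure D5:**
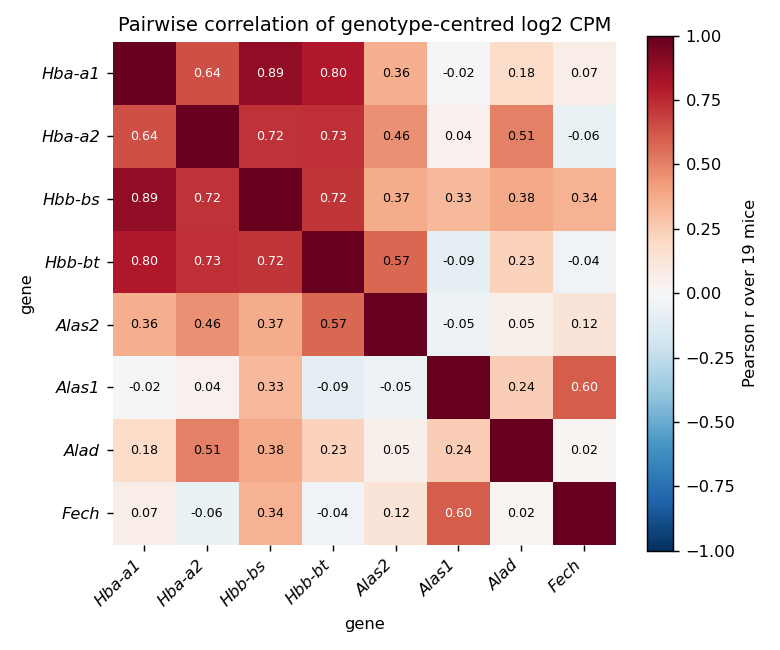
Pearson r of genotype-centred log2 CPM over 19 mice for each pair of the 8 genes, from -1 (blue) to 1 (red). The 4 globins form a block at 0.644 or above, Alas2 is paler, and Alas1 with Fech (0.605) stands apart from the globins.

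The genes of the whole table whose level was most like that of the globins were looked for by the same measure. The globins themselves took the first 4 places among 18521 genes, as each is part of the mean. The 10 other genes with the highest r were Prom2 (0.782), Kifc3 (0.76), Plxna3 (0.757), Map3k14 (0.75), Fos (0.733), Fam181a (0.733), Ccdc8 (0.726), Adgb (0.721), Hes6 (0.72) and Trp53rkb (0.717), over 19 mice. Alas2 was at place 437, Alad at 1191, Fech at 6651 and Alas1 at 6699.

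No other gene of the heme pathway passed a test. None of the genes listed for the other steps of the chain passed in any of the 6 comparisons, and their median log2 fold change was -0.02 for KI-571 against KI-FL mice, compared with 0.02 over all tested genes. Cpox was the most abundant of them (68.9 CPM in WT and 62.4 CPM in KI-571 mice, means), followed by Urod (32.6 and 34.6 CPM) and Ppox (22.7 and 22.8 CPM). Of 13 genes of heme transport and mitochondrial supply none passed, with medians of -0.08 to 0.05 over the comparisons. Slc48a1, which exports heme from lysosomes, was at 162 CPM in both WT and KI-571 mice. Slc25a37 (mitoferrin), which brings iron into mitochondria and which red cell precursors use strongly, was at 57.9 and 52.4 CPM. Its r with the mean of the globins was 0.123.

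Genes that bind or break down heme, 10 in number, gave no call either, and their medians lay between -0.07 and 0.08. Hmox1, the heme oxygenase that heme induces, was at 3.61 CPM in WT mice and 3.12 to 3.73 CPM in the KI lines (means). The most abundant were Lrp1 (628 CPM in WT), Pgrmc1 (215 CPM) and Hmox2 (43.2 CPM). None of 12 genes of iron handling passed. The means of Fth1, the heavy chain of ferritin, were 1922 CPM in WT, 1814 CPM in KI-96, 2199 CPM in KI-571 and 1781 CPM in KI-FL mice. Ireb2, an iron sensor, was at 70.6 CPM in WT mice, and Tfrc, the transferrin receptor that red cell precursors also carry, was at 68.0 CPM in WT and 61.4 CPM in KI-571 mice.

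Of the 9 other globins 3 passed the filter and none passed a test. Cygb, which many cells express, was at 63.0 CPM in WT and 53.4 CPM in KI-571 mice, Ngb, the globin of neurons, at 4.24 and 1.92 CPM, and Mb at 0.643 and 0.379 CPM. Of the embryonic genes, Hbb-bh1 and Hbb-bh2 had 0 counts in every mouse, Hbb-y had at most 4 counts and Hba-x at most 1. Cygb, Ngb and Mb had negative log2 fold changes in KI-571 against WT mice.

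Markers of the cells that could bring the transcripts were read beside them. Of 20 erythroid markers in the table, 15 did not pass the filter, and they summed to 0.748 to 2.29 CPM in WT, 0.85 to 1.25 CPM in KI-96, 0.859 to 3.81 CPM in KI-571 and 0.396 to 1.37 CPM in KI-FL mice. Rhag was at 0 in every mouse, and Epb42, Kel, Hemgn and Gata1 had at most 3 counts in any. Slc4a1 is band 3, the anion exchanger of the red cell membrane. It had 44 counts in KI-571 replicate 2, the mouse with the highest globins, and 0 to 10 counts in the others. The low markers differed in direction. The means of Nfe2 and Trim58 were also highest in KI-571 mice (0.21 and 0.22 CPM). That of Rhd was highest in WT mice (0.579 CPM, and 0.161 CPM in KI-571), and that of Klf1 in KI-FL mice (0.422 CPM). The 5 markers that passed the filter were Sptb (325 CPM in WT), Bpgm (62.9 CPM), Ank1 (58.5 CPM), Tspan33 and Ermap, of which Sptb, Ank1 and Bpgm are also used in brain. None was called, and the whole list summed to 447 to 497 CPM in WT, 436 to 694 CPM in KI-96, 381 to 680 CPM in KI-571 and 499 to 568 CPM in KI-FL mice.

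Markers of other blood and vessel cells did not pass in any comparison. The 17 leukocyte and platelet markers were led by Ighm, Itga2b and Gp9. They summed to 13.2 to 37.5 CPM in WT and 10.7 to 25.8 CPM in KI-571 mice. Ly6g had at most 1 count in any mouse. The 11 endothelial markers, led by Flt1, Slco1a4 and Abcb1a, summed to 133 to 264 CPM in WT, 172 to 233 CPM in KI-571 and 158 to 218 CPM in KI-FL mice. The 9 mural cell markers, led by Rgs5, Vtn and Notch3, summed to 153 to 218, 160 to 243 and 179 to 198 CPM. The ranges of the vessel markers overlapped between these genotypes. The part of blood and vessel cells in the globin values was not tested.

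The 7 choroid plexus markers, led by Ttr, Clic6 and Kl, had a median log2 fold change of 1.61 for KI-571 against KI-FL mice and 3.62 between KI-571 and WT mice, against 0.02 and -0.01 over all tested genes, and none passed the test. Their r with the mean of the globins within genotypes was -0.137 to -0.01. Of the 7 liver markers, led by Alb, Apoa1 and Apoa2, 4 passed the filter and Alb passed against WT in all KI lines. Alb was 7.52 CPM in KI-96, 3.69 CPM in KI-571 and 2.85 CPM in KI-FL mice and 0.0277 CPM in WT mice (means). The sums of these markers reached 38.2 CPM in KI-96, 10.4 CPM in KI-571 and 11.95 CPM in KI-FL mice, against 0.908 CPM in WT mice. The part of these cells in the globin values was not tested. The 9 striatal projection neuron markers, led by Ppp1r1b and Pde10a, gave no call.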

How the data were processed

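Striatal RNA of 19 mice in 4 genotypes was sequenced. The authors deposited raw counts of reads per gene, made with STAR on GRCm38 and HTSeq per the labels and methods, without normalization. The 4 columns that belong to no sample here, which the submitters ask to disregard, were not used, nor were the 5 summary lines of the counter. The methods state that a WT sample was removed without naming it, so all 7 were kept, and that a sacrifice batch was a covariate, which is not in the labels and was not fitted.

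Identifiers were matched to GENCODE M21 names (54165 of 54232). Counts were normalized by TMM, filtered with filterByExpr (minimum count 10, minimum total 15) and fitted with edgeR 4.0.16 in R 4.3.3, 1 coefficient per genotype over 19 mice and a quasi-likelihood F-test, with Benjamini-Hochberg adjustment over 18521 genes at 0.05. The SE is the log2 fold change over the square root of F. Correlations used log2 CPM with a prior count of 2. Exact permutation tests compared ratios over 330 splits, so the smallest p is 0.00303. A floor of 3 counts was 0.106 to 0.238 CPM (counting error only).

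The members and lists were chosen with earlier results of these data known. Named were the members, the 10 genes most like the globins and, per list, the called genes and the 3 most abundant; other genes were named after their values were seen. Some genes of the lists are not reported here by name. The labels do not say how the mice were bred or grouped at sacrifice, so p-values measure the spread between these samples. Alternatives were DESeq2 1.42.0, its size factors, factors without the members, no filter, only the groups compared, Xist as a covariate, a replicate block, WT replicates 1 to 4, and each mouse left out. The procedure was tested on simulated data.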

Additional observations from a re-analysis of the deposited data

Results flagged for a closer look

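The effects of the KI-571 and KI-FL genotypes against WT differed from each other in 4 genes, by the direct edgeR test between these lines, with log2 differences of 1.99 for Hba-a1, 1.95 for Hbb-bs, 2.04 for Hbb-bt and 2.06 for Alas2 (4 KI-571 and 4 KI-FL mice). The KI-571 mice are those on which the list was chosen.

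One value lay far from its group. Alad was at 3.45 log2 CPM in KI-96 replicate 3, whereas the 3 remaining mice of that genotype had 4.30 to 4.41. Chance marks about 1 in 20 groups in this way, and 1 of 40 groups was marked.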

How the results depend on the processing

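Of 408 values of the members' log2 fold changes under alternatives other than leaving out a single mouse, 364 kept direction and side of the threshold, 18 lost and 6 gained significance, and 20, none of which had passed, changed sign. Of 912 values with 1 mouse left out, 857 kept both, 35 lost and 1 gained significance, and 19 changed sign. For each change the cause was not tested.

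Members past the threshold numbered 4 in KI-571 against KI-FL mice and 2 in KI-571 against WT mice, where they chose the list and are no test. With only the 2 groups compared they were 0 and 2, and with Xist as a covariate 4 and 1. Against WT replicates 1 to 4 KI-571 gave 0. Without the 3 mice high in choroid plexus markers, chosen after seeing the data, both gave 0. In KI-FL against WT mice 1 member (Hba-a1) passed instead of 0 with DESeq2 (adjusted p = 0.0143), with no filter (0.012) and with only the 2 groups (0.0461). In KI-571 against KI-96 mice DESeq2 called 1 and no filter 2. Leaving out each mouse gave 0 to 4 members in KI-571 against KI-FL, 0 to 2 in KI-571 against WT (0 without KI-571 replicate 2 or without any of WT replicates 1 and 3 to 7), 0 to 1 in KI-FL against WT (1 without WT replicate 3) and 0 in the others.

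Of the pathway and marker lists 1 gene, Alb, passed in each KI line against WT. In the order KI-96, KI-571, KI-FL, DESeq2 called 3, 5 and 4 genes, no filter 3, 9 and 2, only the 2 groups 0, 4 and 2, and WT replicates 1 to 4 gave 0, 0 and 0. The Xist covariate gave 0 in KI-96 and KI-FL, and the choroid plexus mice left out gave 0 in KI-571 and KI-FL. In KI-571 against KI-96 DESeq2 called 3 and no filter 4. Leaving out each mouse gave 1 to 2, 0 to 4 and 0 to 2 genes against WT.

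The replicate numbers are shared between genotypes but not between animals. The median r of deviations was -0.005 in 24 same-numbered pairs, 5 of them over 0.1. It was -0.005 in 108 pairs of other numbers, 11 of them over 0.1. Whether same-numbered mice share a batch was not tested. With a replicate block, members called were 1 in KI-571 against KI-FL (Hba-a1) and 0 in KI-571 against WT, and list genes 0 against WT in every line. Under the block the sign turned for Hba-a2 in KI-96 against WT (0.24), KI-FL against WT (0.12) and KI-96 against KI-FL (0.12), and for Fech in KI-571 against WT (0.016).

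The other changes of sign were as follows. With the Xist covariate KI-96 against WT gave 0.45 for Hba-a1, 0.64 for Hba-a2 and 0.066 for Hbb-bs, KI-571 against KI-96 gave -0.14 for Alad, and KI-96 against KI-FL gave 0.74 for Hba-a2. Hba-a2 in that last comparison was 0.013 with DESeq2, 0.0055 with its size factors, 0.015 with no filter and 0.00092 with only the 2 groups. With WT replicates 1 to 4, Hba-a2 was 0.18 in KI-96 and 0.18 in KI-FL mice and Fech 0.019 in KI-571 mice. Without the choroid plexus mice Alas1 was -0.19 in KI-571 against WT and -0.083 against KI-FL, Fech -0.0065 in KI-571 against KI-96 and Hba-a2 0.058 in KI-FL against WT. With each mouse left out, the values that changed sign ran from -0.052 to 0.11 (Alas1) and -0.093 to 0.037 (Fech) in KI-571 against WT, from -0.96 to 0.061 (Hba-a2) and -0.11 to 0.0901 (Alas1) in KI-FL against WT, from -0.058 to 0.21 (Alad) in KI-571 against KI-96, from -0.058 to 0.14 (Alas1) in KI-571 against KI-FL, and from -0.27 to 0.75 (Hba-a2) and -0.042 to 0.074 (Fech) in KI-96 against KI-FL.

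The correlation of the globin mean was 0.74 with Alas2 and -0.117 with Alad without centring, and -0.119 with Alas1 and -0.113 with Fech without the 2 farthest mice. Leaving out each mouse gave 0.244 to 0.627 for Alas2, -0.0598 to 0.23 for Alas1, 0.27 to 0.501 for Alad and -0.0835 to 0.218 for Fech. The log2 ratio of Hbb-bt to Hbb-bs in KI-96 against WT was 0.59 with WT replicates 1 to 4 and 0.709 to 1.07 with a mouse left out, and in KI-FL 0.246 and 0.429 to 0.726. For Alas2 to the globins the values were 0.89 and 0.812 to 1.45 in KI-96 and 0.44 and 0.351 to 0.965 in KI-FL. Both KI-FL values with WT replicates 1 to 4 had an adjusted p of 0.371 (exact permutation test). The KI-FL value passed without WT replicate 1 (adjusted p = 0.0429, exact permutation test) or KI-FL replicate 4 (0.0162, exact).

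Alas2 had as few as 25 counts in a mouse, and a floor of 3 counts was 0.106 to 0.238 CPM. Most erythroid markers lay near this floor, where depth limits any comparison.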
